A study of Mus musculus with 68 samples.

Results

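Collagen VI is an extracellular matrix protein, and its 3 classical chains are made from the genes Col6a1, Col6a2 and Col6a3. These genes were found by symbol among the 18088 genes of the deposited table, and all 3 were present and tested. They were selected on measured values, the difference of Col6a2 between HT and WT libraries, so every difference between genotypes in these chains is a description here, without a test. How far that difference varied with drug or sex was tested. The data are 68 RNA libraries of prefrontal cortex, taken on postnatal day 25 from C57BL/6J mice of both sexes. Libraries labelled HT came from mice heterozygous for a mutant Adnp, which encodes a zinc finger and homeobox protein of chromatin, and libraries labelled WT came from mice without it. Pups had received fluoxetine (a serotonin reuptake inhibitor), lithium (a mood stabilizer) or vehicle from day 3 to day 24 through the milk of their mother. The 35 HT libraries comprised 5 females and 5 males on fluoxetine, 4 females and 5 males on lithium, and 8 females and 8 males on vehicle. The 33 WT libraries comprised 5 females and 5 males on fluoxetine, 5 females and 3 males on lithium, and 8 females and 7 males on vehicle. The sources used here give neither the mutant allele nor the drug doses nor which pups shared a mother, so a p-value measures only the spread between these libraries.

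The α1(VI) and α2(VI) chains are short and pair with the much longer α3(VI) chain in a triple helix. These units join into dimers and tetramers inside the cell and, once secreted, into beaded microfilaments that lie close to the cell surface and next to basement membranes. In the brain collagen VI is best known around blood vessels and in the meninges. In humans, mutations of each of the 3 genes cause the collagen VI muscle diseases, Bethlem myopathy and Ullrich congenital muscular dystrophy. In mice 3 further chains, encoded by Col6a4, Col6a5 and Col6a6, resemble α3(VI) and are thought to take its place in some trimers.

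On mouse build GRCm38, Col6a2 (ENSMUSG00000020241, chr10:76595762-76623630) and Col6a1 (ENSMUSG00000001119, chr10:76708792-76726168) lie on the same strand, the minus strand, of chromosome 10 with 85.2 kb between them. Col6a3 (ENSMUSG00000048126, chr1:90765923-90843971, minus strand) is on chromosome 1. All 3 genes matched the RefSeq promoter table (GRCm38.p6), and the stretches upstream of every annotated transcript are shown because Col6a1 and Col6a2 moved together across libraries while Col6a3 moved with them less closely. Each is written 5′ to 3′ on the gene's strand and ends at the base before the outermost annotated start (Col6a1 chr10:76726169-76726294, Col6a2 chr10:76623631-76623880, Col6a3 chr1:90843972-90844221). Capitals mark a GC box.
Col6a1: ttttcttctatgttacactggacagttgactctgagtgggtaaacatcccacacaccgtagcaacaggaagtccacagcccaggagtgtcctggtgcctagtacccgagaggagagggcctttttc
Col6a2: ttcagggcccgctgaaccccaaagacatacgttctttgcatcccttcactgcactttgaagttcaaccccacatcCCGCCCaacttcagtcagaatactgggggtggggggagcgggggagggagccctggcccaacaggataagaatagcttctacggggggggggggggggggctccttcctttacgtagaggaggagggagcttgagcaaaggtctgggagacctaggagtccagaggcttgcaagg
Col6a3: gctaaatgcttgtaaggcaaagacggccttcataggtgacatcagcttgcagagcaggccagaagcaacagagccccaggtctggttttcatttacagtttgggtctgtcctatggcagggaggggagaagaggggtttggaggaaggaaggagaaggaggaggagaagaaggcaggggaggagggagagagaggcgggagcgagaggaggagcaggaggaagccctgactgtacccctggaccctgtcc
Both strands of the RefSeq windows, 250 bases before to 50 after a start, were searched for 4 motifs. The GC box (GGGCGG), the binding motif of Sp1, matched in 35.7% of 32851 mouse promoter windows. It was found on the opposite strand at position -175 from the outer start of Col6a2, which is the match in capitals, and at 3 places in the window of a second, inner RefSeq start of the gene, of which 2 overlap. The windows of Col6a1 and Col6a3 held no GC box. An AP-1 motif (TGANTCA), present in 7.81% of windows, was found at position -90 from the RefSeq start of Col6a1, inside the first exon annotated by GENCODE and therefore not printed, and in no window of Col6a2 or Col6a3. The CCAAT box (CCAAT, in 37.4% of windows) and the TATA box (TATAAA, in 13.6%) matched in none of the windows of the 3 genes. The printed stretches were 51.6% (Col6a1), 59.2% (Col6a2) and 57.2% (Col6a3) G and C.

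Libraries held 22356015 to 37534435 recovered reads, and the cortical excitatory neuron gene Slc17a7 was high in all of them (lowest 33346 normalized counts, which are read counts that the authors divided by a size factor for each library), while markers of neighbouring tissue varied widely, such as the choroid plexus gene Ttr (0 to 5536) and the olfactory bulb gene Eomes (0.89 to 2129). Adnp itself was not lower in libraries labelled HT: its median was 1911 normalized counts in HT and 1488 in WT libraries on fluoxetine, 2340 and 1998 on lithium, and 2334 and 1978 on vehicle. Reads counted per gene do not show which allele they came from, so this does not check the genotype labels, and each direction given here is between libraries labelled HT and WT. The libraries were also split into 3 sets by clustering on the levels of 361 pseudogenes, a split that the labels do not name. The number of sets was a setting of the clustering and was not tested. Of the vehicle libraries, 8 HT were in set 1 beside everything on fluoxetine (28 libraries in all), 6 HT and 5 WT were in set 2 beside everything on lithium (28), and the remaining 2 HT and 10 WT made up set 3 (12). Values within a set are therefore given beside those over all libraries.

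Col6a2 was the chain with the widest separation. Under fluoxetine the 10 HT libraries had 1158, 1182 and 1387 normalized counts (lowest, median and highest), against 531, 660 and 736 in the 10 WT libraries. On lithium the 9 HT libraries had 1324, 1451 and 2073 (lowest, median and highest), against 560, 693 and 829 in the 8 WT libraries. On vehicle the 16 HT libraries had 1022, 1230 and 1519 (lowest, median and highest), against 571, 716 and 878 in the 15 WT libraries. Within each arm every HT library lay above every WT library, as in 0.279% of genes on fluoxetine, 0.446% on lithium and 0.128% on vehicle. Over all 68 libraries, too, the lowest HT value, 1022, stood above the highest WT value, 878. Col6a2 was 1 of 9 genes of 17922 (0.0502%) whose HT libraries all lay above all WT libraries across the study. The others were B230206L02Rik, Best1, E2f2, Pcdhga11, Prss50, Slc6a19, Spef2 and Stpg1, and no gene had all HT libraries below all WT libraries. Nothing is read from these shares, because Col6a2 was chosen for this difference. Differences were fitted by limma to log2(normalized count + 1), and an adjusted p (Benjamini-Hochberg over 17922 genes) under 0.05 counted as passing wherever a test is given. The HT minus WT difference of Col6a2 was 0.89 (SE 0.069) on the log2 scale under fluoxetine, 1.10 (SE 0.077) under lithium and 0.84 (SE 0.056) under vehicle.

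Col6a1, the gene of the other short chain and the more abundant RNA, showed the same direction. On fluoxetine the HT libraries had 4263, 4886 and 6432 normalized counts (lowest, median and highest), against 2521, 3321 and 4239 in WT. On lithium they had 4123, 5599 and 7156 (lowest, median and highest), against 2578, 3176 and 3827 in WT. On vehicle they had 4246, 5073 and 6437 (lowest, median and highest), against 2660, 3482 and 4076 in WT. Within each arm the genotypes of Col6a1 did not overlap either, as in 0.279% of genes on fluoxetine, 0.446% on lithium and 0.128% on vehicle. Between arms the ranges met, since 1 HT library on lithium (4123) was below 1 WT library on fluoxetine (4239). The HT minus WT difference of Col6a1 was 0.61 (SE 0.077) on the log2 scale under fluoxetine, 0.80 (SE 0.086) under lithium and 0.59 (SE 0.062) under vehicle.

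Col6a3, the gene of the long chain, differed least. On fluoxetine the HT libraries had 155, 194 and 229 normalized counts (lowest, median and highest), against 118, 172 and 201 in WT. On lithium they had 184, 199 and 223 (lowest, median and highest), against 151, 177 and 208 in WT. On vehicle they had 200.4, 212 and 244 (lowest, median and highest), against 139, 193 and 219 in WT. The genotypes overlapped in every arm: 3 of 10 HT libraries on fluoxetine, 3 of 9 on lithium and 6 of 16 on vehicle stood above all WT libraries of their arm. The HT minus WT difference of Col6a3 was 0.18 (SE 0.074), 0.23 (SE 0.082) and 0.23 (SE 0.060) on the log2 scale under fluoxetine, lithium and vehicle. WT libraries were also the more variable ones for this gene, with a coefficient of variation over all arms of 9.59% in HT and 14.6% in WT.

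**Figure D1:**
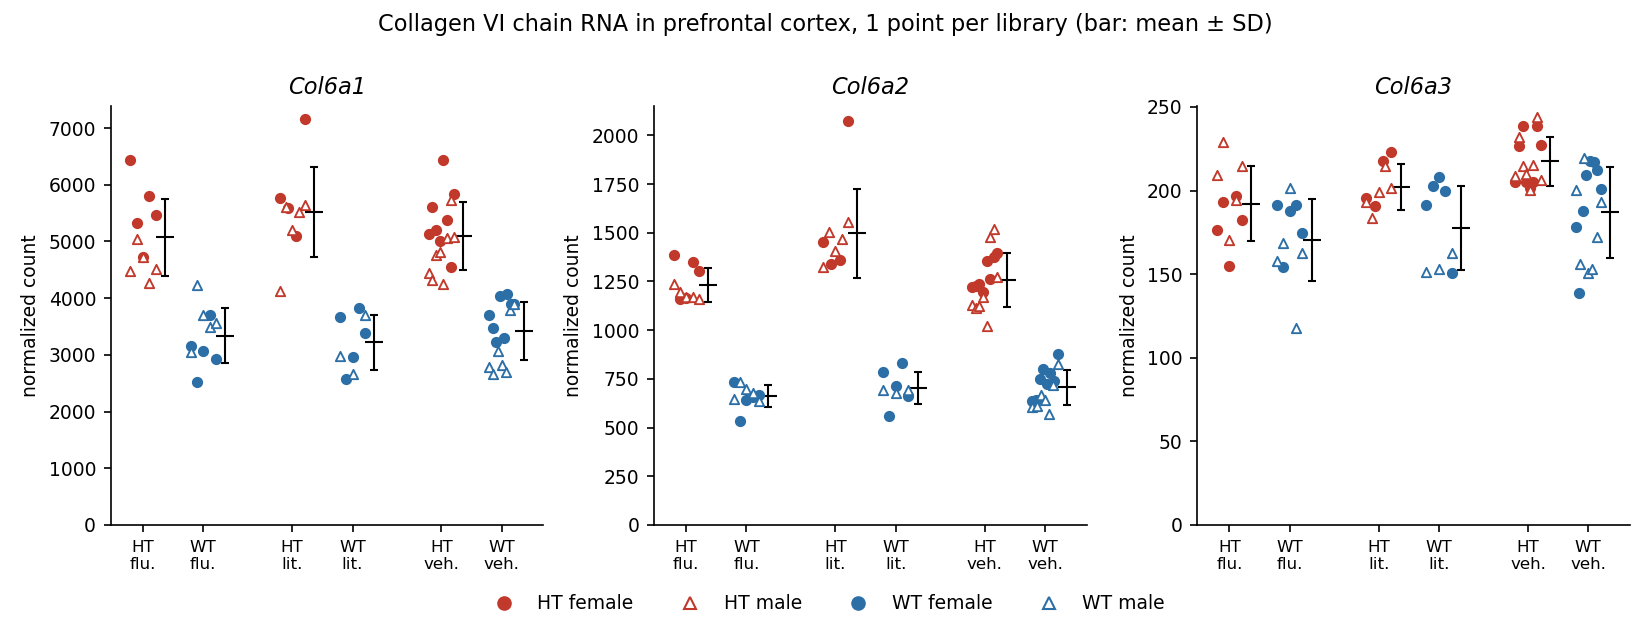
Normalized counts (linear axes from 0) of Col6a1, Col6a2 and Col6a3 in each of the 68 libraries, HT (red) left of WT (blue) under fluoxetine (flu.), lithium (lit.) and vehicle (veh.). Circles are females, triangles males, and bars give the mean and SD of each group. For Col6a2 every HT library stands above every WT library of all arms, for Col6a1 this holds within each arm, and for Col6a3 the genotypes overlap.

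Ordered by mean, the Col6a2 groups ran from HT lithium (1498 ± 229 normalized counts, SD, n = 9) through HT vehicle (1256 ± 138, n = 16) and HT fluoxetine (1230 ± 86.7, n = 10) to WT vehicle (706 ± 90.0, n = 15), WT lithium (701 ± 81.4, n = 8) and WT fluoxetine (662 ± 58.2, n = 10). The means of HT vehicle and HT fluoxetine, and those of the 3 WT groups, differed by less than their SDs, while HT lithium stood above HT vehicle by slightly more than the SD of either. The gap between the lowest HT mean and the highest WT mean was wider than the spread of either group. The order for Col6a1 was HT lithium (5523 ± 791), HT vehicle (5101 ± 597), HT fluoxetine (5077 ± 679), WT vehicle (3423 ± 518), WT fluoxetine (3341 ± 493) and WT lithium (3220 ± 489). For Col6a1 only the step between the genotypes exceeded the SDs. For Col6a3 the order was HT vehicle (217 ± 14.8), HT lithium (202 ± 13.5), HT fluoxetine (192 ± 22.2), WT vehicle (187 ± 27.3), WT lithium (177 ± 25.2) and WT fluoxetine (171 ± 24.5), and only HT vehicle stood above its neighbour, HT lithium, by slightly more than the SDs of both.

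The chains did not change in proportion. Counts of Col6a2 were 25.3 ± 2.48% of those of Col6a1 in the 35 HT libraries and 20.8 ± 2.11% in the 33 WT libraries (SD). Counts of Col6a3 were 4.03 ± 0.64% of those of Col6a1 in HT and 5.45 ± 0.98% in WT. Divided by the length of the longest coding transcript, vehicle levels were 1244 ± 146 normalized counts per kb for Col6a1 in HT and 835 ± 126 in WT. Col6a2 had 270 ± 29.6 normalized counts per kb in HT and 152 ± 19.3 in WT, and Col6a3 had 21.5 ± 1.46 in HT and 18.5 ± 2.70 in WT (SD, n = 16 HT and 15 WT). Per length, Col6a1 RNA was thus 4.62 times that of Col6a2 and 58.0 times that of Col6a3 in HT, against 5.51 and 45.6 times in WT. These ratios depend on the transcript assumed: with the merged exons of all transcripts as the length, Col6a1 stood at 7.75 times Col6a2 in HT and 9.22 times in WT.

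The direction of the genotype difference held inside the library sets. All fluoxetine libraries belonged to set 1 and all lithium libraries to set 2, so those differences are already within a set. Within set 2 on vehicle (6 HT and 5 WT libraries), the HT minus WT difference was 0.82 (SE 0.082) for Col6a2, 0.43 (SE 0.096) for Col6a1 and 0.18 (SE 0.10) for Col6a3 on the log2 scale. Col6a2 had 1384 ± 104 normalized counts in the HT libraries of that set (n = 6) and 787 ± 65.9 in the WT libraries (n = 5). Split by sex, Col6a3 in set 2 stood at 0.089 (SE 0.14) in vehicle females and 0.28 (SE 0.15) in vehicle males. Vehicle males of set 3 (2 HT and 5 WT libraries) gave a difference of 0.86 (SE 0.11) for Col6a2. They gave 0.64 (SE 0.13) for Col6a1 and 0.34 (SE 0.14) for Col6a3. The levels themselves moved with the sets. WT vehicle libraries of set 3 were lower than those of set 2 for Col6a1 (log2 difference -0.31, adjusted p = 0.00335) and Col6a2 (-0.24, adjusted p = 0.0069), and Col6a3 stood at -0.13 (adjusted p = 0.265), in a comparison where 7599 genes passed. HT vehicle libraries of set 1 stood at -0.24 relative to those of set 2 for Col6a2 (adjusted p = 0.0758, 290 genes passed) and at -0.069 for Col6a1 (adjusted p = 0.707).

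Among the other collagen VI genes, which were not used in the choice, Col6a4 was higher in HT in every arm, Col6a5 under vehicle and Col6a6 under lithium. Col6a4 had 185, 343 and 595 normalized counts (lowest, median and highest) in HT libraries on fluoxetine, against 107, 153 and 216 in WT. On lithium Col6a4 had 55.6, 322 and 662 (lowest, median and highest) in HT libraries, against 49.4, 126 and 184 in WT, and on vehicle 113, 383 and 480 in HT, against 53.1, 143 and 230 in WT. The genotypes overlapped in every arm, and on lithium and vehicle the lowest HT library stood below the WT median. HT libraries were widely spread, with a coefficient of variation of 40.3% over all arms in HT and 33.6% in WT. Col6a4 was 2.15-fold higher in HT under fluoxetine (log2 1.10, SE 0.30, adjusted p = 0.0353 by limma), 2.53-fold under lithium (1.34, SE 0.34, adjusted p = 0.0167) and 2.29-fold under vehicle (1.20, SE 0.24, adjusted p = 0.000538). Within set 2 on vehicle Col6a4 stood at 1.04 (adjusted p = 0.553). Col6a5 was higher in HT under vehicle (0.43, SE 0.14, adjusted p = 0.0334; within set 2 0.23, adjusted p = 0.999) and stood at 0.45 under fluoxetine (adjusted p = 0.227) and 0.56 under lithium (adjusted p = 0.11). Col6a6 was higher under lithium (0.71, SE 0.20, adjusted p = 0.0339) and stood at 0.057 under fluoxetine (adjusted p = 0.955) and 0.26 under vehicle (adjusted p = 0.199). Of these 3 chains, 1 was higher under fluoxetine, 2 under lithium and 2 under vehicle, where 1.33%, 1.48% and 7.74% of all 17922 genes were higher.

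Per length Col6a4 had 46.7 ± 16.3 normalized counts per kb in HT and 20.01 ± 7.32 in WT on vehicle. Its mean was above that of Col6a3 in HT (21.5 ± 1.46) and, by less than the SDs, in WT (18.5 ± 2.70). Col6a5 had 4.68 ± 1.30 in HT and 3.54 ± 1.15 in WT, and Col6a6 had 2.78 ± 0.68 in HT and 2.39 ± 0.76 in WT (SD, n = 16 HT and 15 WT). The scarcest chain, Col6a6, rested on 6 to 40 reads per library and Col6a5 on 8 to 68, against 118 to 278 for Col6a3, 496 to 1941 for Col6a2 and 2339 to 7029 for Col6a1. The 3 genes lie side by side on chromosome 9 (Col6a6 chr9:105687809-105828160, Col6a5 chr9:105856078-105960643, Col6a4 chr9:105989454-106096783, all on the minus strand), apart from the loci of the other chains.

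Around the chromosome 10 pair the protein-coding neighbours stood between -0.15 and 0.20 on the log2 scale in all arms. The nearest tested gene of known function below Col6a2, Lss, an enzyme of sterol synthesis 92.0 kb away between start sites, differed by -0.082 (SE 0.046) under fluoxetine, -0.00072 (SE 0.051) under lithium and 0.013 (SE 0.037) under vehicle, on the log2 scale (adjusted p = 0.48, 0.998 and 0.849). Between Col6a2 and Col6a1 lies the sparsely read lincRNA Gm35608 (mean 5.69 normalized counts), at 0.34 (SE 0.31) under fluoxetine (adjusted p = 0.727), 0.45 (SE 0.35) under lithium (adjusted p = 0.588) and 0.37 (SE 0.25) under vehicle (adjusted p = 0.317). Above Col6a1, Pcbp3, an RNA-binding protein gene, stood at 0.024, -0.072 and -0.010 under fluoxetine, lithium and vehicle (adjusted p = 0.989, 0.952 and 0.981). Another collagen gene nearby, Col18a1, which encodes a basement membrane collagen, stood at -0.12, -0.067 and -0.060 under fluoxetine, lithium and vehicle (adjusted p = 0.697, 0.854 and 0.653). Of the 9 neighbours of Col6a2 other than Col6a1, 0 passed under fluoxetine or lithium, where 1.98% and 2.51% of all genes did. Under vehicle, where 15% of all genes passed, 2 of the 9 were higher: the folate carrier gene Slc19a1 (0.13, SE 0.041, adjusted p = 0.0244) and the centrosome gene Pcnt (0.13, SE 0.046, adjusted p = 0.0482), at 0.041 and 0.080 within set 2 (adjusted p = 0.999 each). Of the 10 neighbours of Col6a3, 0 were higher in any arm, and the ubiquitin-conjugating enzyme gene Ube2f was lower under vehicle (-0.12, SE 0.036, adjusted p = 0.0143).

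**Figure D2:**
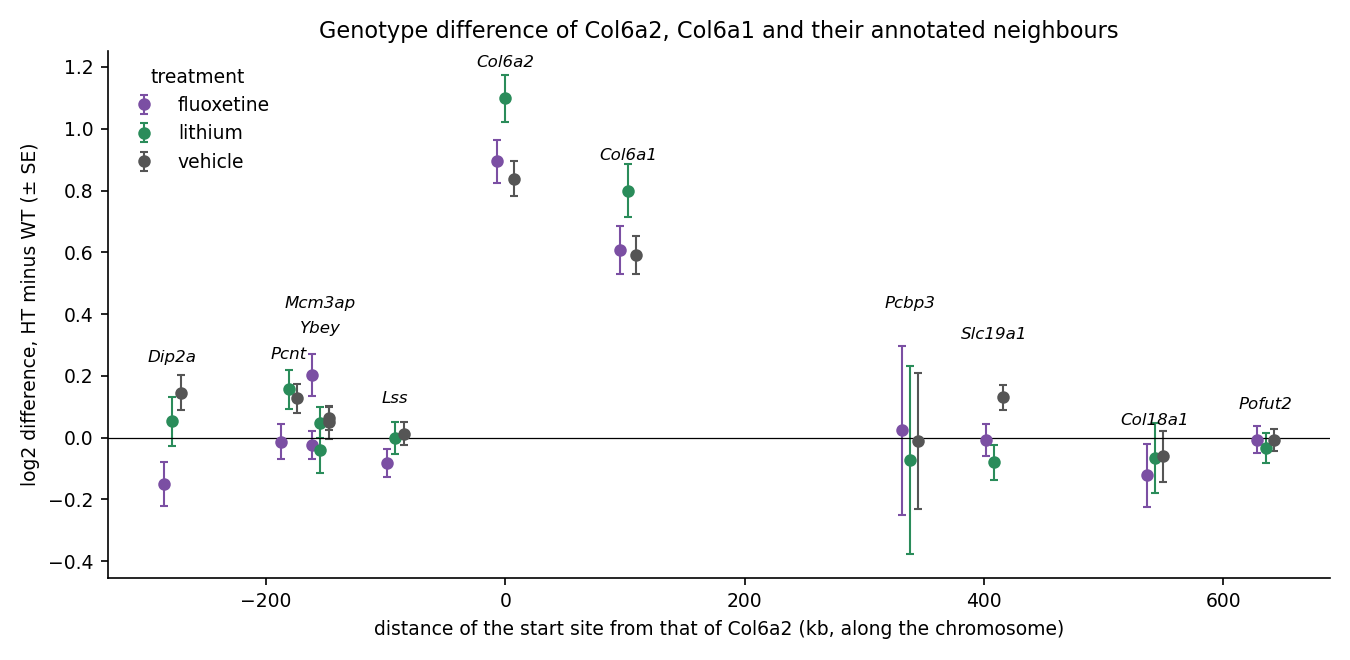
Log2 difference HT minus WT (± SE) of Col6a2, Col6a1 and neighbouring named genes of chromosome 10, against the distance of each start site from that of Col6a2 in kb, with 1 colour per treatment. Col6a2 and Col6a1 stand between 0.59 and 1.10, while the named neighbours lie between -0.15 and 0.20.

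Genes that act on or with collagen VI were compared between genotypes from lists of its receptors, its matrix partners, the machinery of collagen folding and export, and collagen processing. In either direction 1.98% of all genes passed under fluoxetine, 2.51% under lithium and 15% under vehicle, and with the library sets in the fit 2.85%, 4.49% and 0.536% did. The clearest member was Sec24d, a cargo-binding subunit of the COPII coat that carries procollagen out of the endoplasmic reticulum. Sec24d had 497, 543 and 596 normalized counts (lowest, median and highest) in HT libraries on fluoxetine, against 357, 409 and 463 in WT, and 532, 590 and 654 in HT libraries on lithium, against 361, 415 and 465 in WT. On vehicle it had 514, 560 and 626 in HT libraries, against 317, 396 and 502 in WT. Within each arm every HT library lay above every WT library, as in 0.279% of genes on fluoxetine, 0.446% on lithium and 0.128% on vehicle. Sec24d was 1.34-fold higher in HT under fluoxetine (log2 0.42, SE 0.056, adjusted p = 3.3e-07 by limma), 1.42-fold under lithium (0.51, SE 0.062, adjusted p = 2.27e-08) and 1.41-fold under vehicle (0.50, SE 0.045, adjusted p = 6.69e-13), and it passed within set 2 on vehicle too (0.37, adjusted p = 0.0011). Of the 24 genes of folding and export 1, Sec24d, was higher and 0 lower under fluoxetine, 1 (Sec24d again) higher and 0 lower under lithium, and 2 higher and 1 lower under vehicle, beside the 1.98%, 2.51% and 15% of all genes. Under vehicle the second higher gene was P4ha2, a prolyl hydroxylase subunit (0.20, adjusted p = 0.0191), and the lower one Colgalt2, a collagen galactosyltransferase (-0.13, adjusted p = 0.031). The median of the list was -0.019, -0.030 and -0.0078 under fluoxetine, lithium and vehicle, beside -0.0018, 0.0019 and -0.0055 over all genes.

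Of 10 receptor genes, Itga3, an integrin chain that pairs with the β1 chain, was higher under fluoxetine (0.22, SE 0.055, adjusted p = 0.0185) and vehicle (0.30, SE 0.045, adjusted p = 1.84e-06), at 504 ± 16.4 normalized counts in HT and 434 ± 27.3 in WT on fluoxetine and 535 ± 33.6 in HT and 439 ± 57.5 in WT on vehicle (SD). Under lithium Itga3 stood at 0.13 (adjusted p = 0.311), and within set 2 on vehicle at 0.12 (adjusted p = 0.909). The β1 chain gene Itgb1 (-0.12, adjusted p = 0.0288) and the collagen-binding integrin gene Itga1 (-0.18, adjusted p = 0.0377) were lower under vehicle. In all 1 of the 10 receptor genes was higher and 0 lower under fluoxetine (1.98% of all genes passed), 0 passed under lithium (2.51%), and 1 was higher and 2 lower under vehicle (15%). Of 15 matrix partners, 0 passed under fluoxetine. Under lithium 1 was higher, the microfibril gene Fbn1 (0.36, SE 0.082, adjusted p = 0.0067). Under vehicle Matn2, a matrilin that bridges matrix filaments (0.25, SE 0.068, adjusted p = 0.0101), and Tgfbi, which encodes a matrix protein that binds collagens (0.30, SE 0.090, adjusted p = 0.0182), were higher and another matrilin gene, Matn1, was lower (-0.46, SE 0.15, adjusted p = 0.0259). Matn2 was at 0.26 under both fluoxetine (adjusted p = 0.102) and lithium (adjusted p = 0.124), and with the library sets in the fit it passed under both (adjusted p = 0.0114 and 0.0216). Another matrilin gene, Matn4, at -0.42 under fluoxetine (adjusted p = 0.0886), passed in that fit as well (adjusted p = 0.0356).

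Of 37 genes of other collagen types, 0 were higher and 1 lower under fluoxetine (1.98% of all genes passed), 2 higher and 1 lower under lithium (2.51%), and 1 higher and 2 lower under vehicle (15%). With the library sets in the fit 4 were higher and 1 lower under lithium, where 4.49% of all genes passed, and the added genes were Col14a1 (0.38) and Col17a1 (0.41). Their median difference was -0.052 under fluoxetine, 0.15 under lithium and -0.0010 under vehicle. The lower gene in every arm was Col26a1, at -0.29 under fluoxetine (adjusted p = 0.0183), -0.29 under lithium (adjusted p = 0.0322) and -0.28 under vehicle (adjusted p = 0.000658). Under lithium Col12a1, a fibril-associated collagen (0.33, adjusted p = 0.00285), and Col5a1, a regulator of fibril width (0.37, adjusted p = 0.0254), were higher. Under vehicle the basement membrane chain gene Col4a4 was higher (0.57, adjusted p = 0.0206) and Col28a1 lower (-0.46, adjusted p = 0.0196). Of 17 genes of collagen processing and turnover, 0 passed under fluoxetine (1.98% of all genes did). Under lithium (2.51%) the protease gene Htra1 was lower (-0.28, adjusted p = 0.0216), and under vehicle (15%) Mmp9, a gelatinase (0.31, adjusted p = 0.0171), and Bmp1, a procollagen C-proteinase (0.12, adjusted p = 0.0429), were higher. Bmp1 also passed under lithium with the library sets in the fit (0.19, adjusted p = 0.0475, against 0.0702 without). Of 17 genes of TGF-beta signalling, which stimulates matrix synthesis in fibroblasts, 0 were higher in any arm and 2 were lower under vehicle, where 15% of all genes passed: the ligand gene Tgfb2 (-0.32, adjusted p = 0.0059) and the co-receptor gene Tgfbr3 (-0.22, adjusted p = 0.00835). Of the list genes named here as higher or lower under vehicle, only Sec24d passed within set 2 as well, where 0.536% of all genes did.

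**Figure D3:**
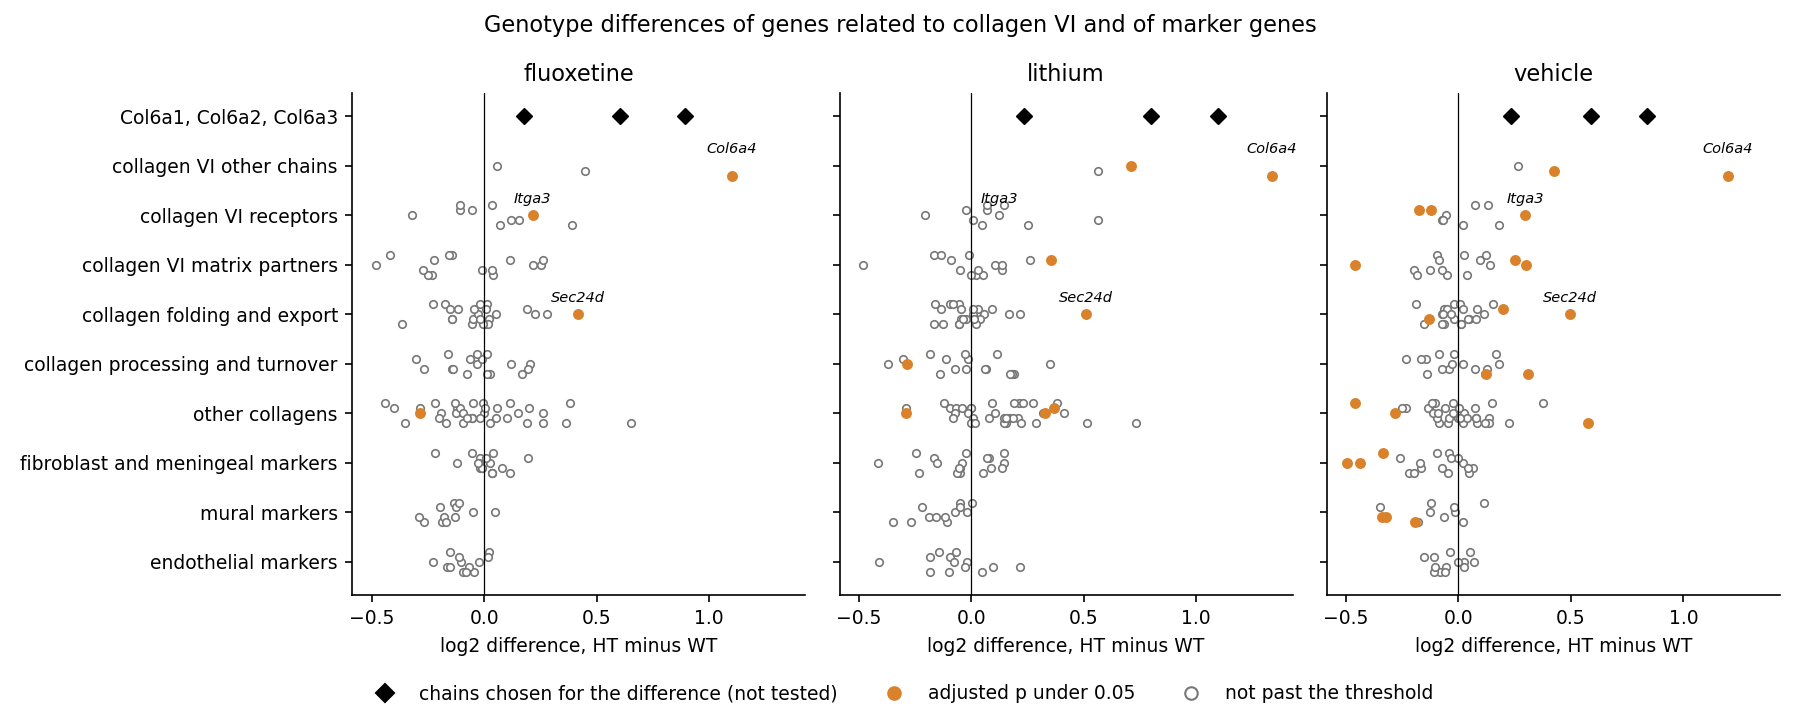
Log2 difference HT minus WT of each gene of the collagen-related and vascular or meningeal lists under fluoxetine, lithium and vehicle. Filled orange points passed an adjusted p of 0.05, open points did not, and black diamonds are the 3 chains, which were chosen for this difference and not tested. Col6a4 and Sec24d stand to the right of their lists in all 3 arms, while the medians of the other collagens and the marker lists lie between -0.15 and 0.15.

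Markers of the cells in which collagen VI is best known were compared in the same way. Of 18 fibroblast and meningeal markers 0 passed under fluoxetine or lithium (1.98% and 2.51% of all genes did), and under vehicle, where 15% of all genes passed, 0 were higher and 3 lower (Foxc1 -0.44, Igf2 -0.34 and Ogn -0.49). Their summed level ranged from 8485 to 13999 normalized counts in HT and 9505 to 16101 in WT on fluoxetine, 9073 to 11706 in HT and 8967 to 12020 in WT on lithium, and 9202 to 14382 in HT and 9978 to 15093 in WT on vehicle. Of 12 mural cell markers 0 passed under the drugs and 3 were lower under vehicle (Myh11 -0.32, Acta2 -0.34 and Abcc9 -0.19), beside the same shares of all genes. Mural sums were 7133 to 9492 in HT and 8361 to 10945 in WT on vehicle. Of 13 endothelial markers 0 passed in any arm, beside the same shares. With the library sets in the fit 1 was lower under fluoxetine (Tie1 -0.23, adjusted p = 0.0157), where 2.85% of all genes passed. In that fit 2 were lower under lithium (Ly6c1 -0.41, adjusted p = 0.00373, and Abcb1a -0.19, adjusted p = 0.0475), where 4.49% of all genes passed. Endothelial sums were 9000 to 11859 in HT and 9393 to 12295 in WT on vehicle. None of these markers was at 0 in any library. With the scores of these 3 lists as covariates the HT minus WT difference of Col6a2 was 0.95 under fluoxetine, 1.13 under lithium and 0.85 under vehicle, and that of Col6a1 was 0.66 under fluoxetine, 0.83 under lithium and 0.59 under vehicle. Fewer cells of a type and less RNA per cell cannot be told apart in bulk tissue.

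After the mean of each of the 12 groups was removed, Col6a1 and Col6a2 still went up and down together across the 68 libraries. Pearson's r was 0.72 and Spearman's rho 0.72 (permutation p = 1e-05 for each, the smallest that 100000 resamples can give, and 3e-05 after Benjamini-Hochberg adjustment over 3 pairs). It was 0.73 in the 35 HT and 0.72 in the 33 WT libraries, 0.67 without the 2 libraries farthest from the median of Col6a1, and 0.66 with set means removed as well. Within sets it was 0.73 in set 1 (n = 28), 0.69 in set 2 (n = 28) and 0.35 in set 3 (n = 12). Col6a3 followed the others less closely. Its r was 0.38 with Col6a2 (rho 0.40, adjusted permutation p = 0.003 and 0.0033) and 0.25 with Col6a1 (rho 0.28, adjusted permutation p = 0.058 and 0.033). With set means removed these were 0.36 and 0.22, and without the 2 farthest libraries 0.36 and 0.27. Permutations were made within the 12 groups but across library sets, and the values with set means removed were not tested.

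**Figure D4:**
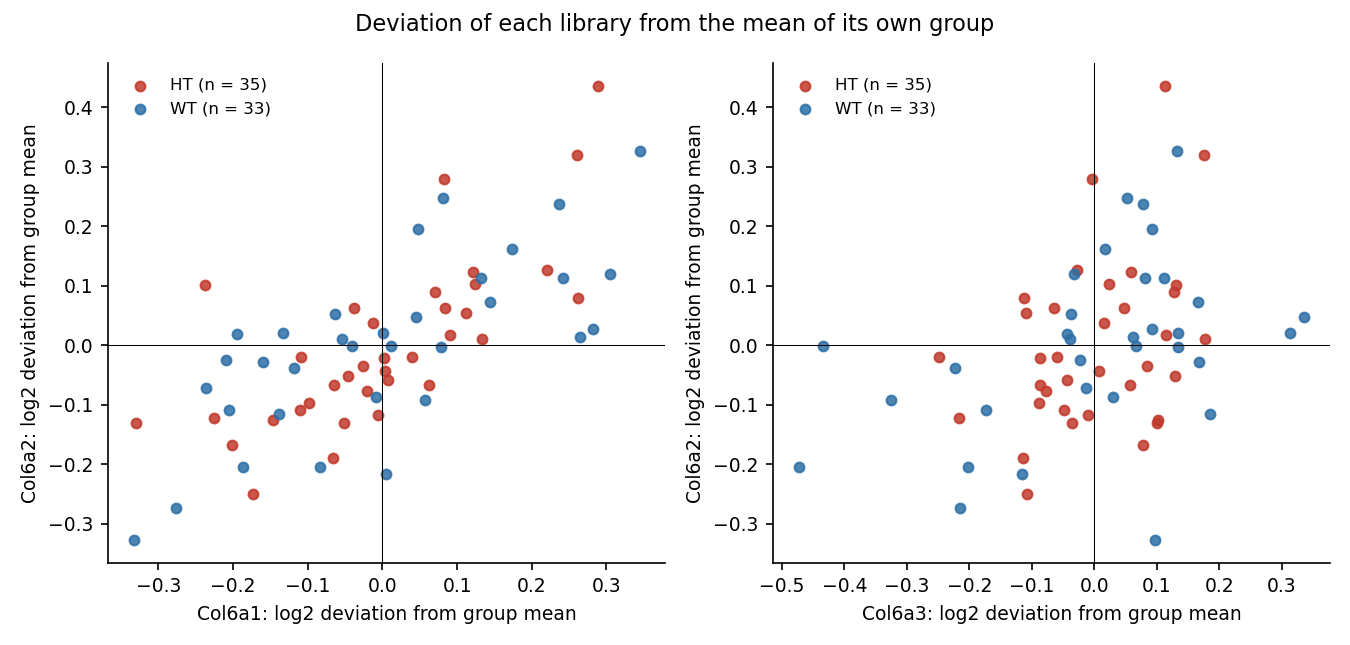
Log2 deviation of each library from the mean of its own group, Col6a2 against Col6a1 (left) and against Col6a3 (right), with 1 point per library, HT in red and WT in blue. Libraries of both genotypes follow a common slope in the left panel (r = 0.72), and scatter more widely in the right panel (r = 0.38).

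Among 13738 genes with a mean of at least 50, the genes whose deviations were most like those of Col6a1 were Stxbp2 (r = 0.82), Sema5b (0.78), Kcnt1 (0.73) and Plekhg3 (0.73), with Col6a2 in rank 5 and Sulf1, Cdh24 and 5031439G07Rik after it. For Col6a2 the nearest gene was Col6a1 itself, ahead of Rogdi (0.69), Prodh (0.68), Epn1, Pik3cd and Fastk (0.67 each), the basement membrane collagen gene Col4a2 (0.67) and Ptpru (0.67). For Col6a3 the nearest were Scmh1 (0.54), Dennd1a (0.53), Irf8 (0.53), Abhd14b (0.52) and Sh3tc1 (0.51), ahead of Gm37928, Srgap2 and Als2cl, and Col6a2 held rank 137 and Col6a1 rank 1107. In the other direction Col6a3 held rank 2085 among the genes like Col6a2 and rank 2982 among those like Col6a1. Markers of cell types moved with the chains in these deviations, and the genes all share the libraries and their scaling. The median r with Col6a1 was 0.59 over 10 oligodendrocyte markers and 0.55 over 10 striatal markers, against -0.15 over fibroblast and meningeal markers, 0.12 over mural and 0.091 over endothelial markers. With Col6a2 it was 0.47 over microglia, 0.42 over oligodendrocyte, 0.36 over endothelial and -0.49 over olfactory bulb markers, and with Col6a3 it stayed between -0.24 and 0.24 over every list. Of the oligodendrocyte, striatal and olfactory bulb markers, 0 of 10 each passed between HT and WT in any arm. Of all genes 1.98% passed under fluoxetine, 2.51% under lithium and 15% under vehicle. Oligodendrocyte sums were 103929 to 229377 normalized counts in HT and 87780 to 236783 in WT on vehicle. Within set 2 on vehicle the median difference was -0.52 over the striatal and 1.54 over the olfactory bulb markers, and 0 of either passed. Of 10 markers of oligodendrocyte precursors, whose median r was 0.38 with Col6a1 and 0.35 with Col6a2, 0 were higher in HT. Under fluoxetine 2 were lower (Vcan and C1ql1), under lithium 1 (Pdgfra) and under vehicle 2 (Vcan and Cacng4), beside the 1.98%, 2.51% and 15% of all genes. With the library sets in the fit 3, 1 and 0 were lower, where 2.85%, 4.49% and 0.536% of all genes passed. The part of these markers in the result was not tested. With the scores of the oligodendrocyte, striatal and olfactory bulb lists as covariates, an alternative chosen after the data had been seen, the HT minus WT difference under fluoxetine, lithium and vehicle was 0.91, 1.09 and 0.83 for Col6a2, and 0.63, 0.77 and 0.56 for Col6a1.

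Drug effects on the chains were tested against vehicle within each genotype. Under fluoxetine 0 of the 3 chains passed in either genotype, where 1.22% of all genes passed in HT and 5.43% in WT. The fluoxetine minus vehicle difference of Col6a2 was -0.025 in HT (95% interval -0.15 to 0.099, adjusted p = 0.909) and -0.081 in WT (-0.21 to 0.045, adjusted p = 0.469). For Col6a1 it was -0.0088 in HT (-0.15 to 0.13, adjusted p = 0.976) and -0.024 in WT (-0.17 to 0.12, adjusted p = 0.878). Col6a3 had the widest fluoxetine difference, -0.18 in HT (-0.32 to -0.049, adjusted p = 0.173) and -0.13 in WT (-0.26 to 0.0082, adjusted p = 0.26), neither past the threshold. Within set 1 the HT differences were 0.066, 0.0081 and -0.15 for Col6a2, Col6a1 and Col6a3 (adjusted p = 0.762, 0.985 and 0.509), where 0.167% of all genes passed, and no set held both sides in WT.

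Lithium was followed by more Col6a2 RNA in HT libraries. Col6a2 stood at 1324 to 2073 normalized counts in HT libraries on lithium and 1022 to 1519 on vehicle, and was 1.19-fold higher (log2 0.25, SE 0.065, 95% interval 0.12 to 0.38, adjusted p = 0.0298 by limma, 0.0289 by edgeR), the only 1 of the 3 chains to pass, where 1.52% of all genes did. The ranges overlapped. The call was lost in several alternatives: within set 2 the difference was 0.11 (SE 0.070, adjusted p = 0.62, where 0.162% of genes passed), and without any of 5 of the 25 libraries in turn it was 0.18 to 0.25 (adjusted p = 0.0505 to 0.119, the lowest value without HT lithium female 4). With fibroblast, mural and endothelial scores as covariates it was 0.24 (adjusted p = 0.195). Markers of neighbouring tissue differed in level between the same groups without passing, with a median over 10 genes of 0.73 for the striatal and -1.22 for the olfactory bulb list, and with their scores and the oligodendrocyte score as covariates the Col6a2 difference was 0.19 (adjusted p = 0.142). Col6a1 stood at 0.12 in HT (-0.024 to 0.27, adjusted p = 0.39) and Col6a3 at -0.10 (-0.24 to 0.037, adjusted p = 0.454). In WT libraries 0 of the 3 chains passed with lithium, where 36.1% of all genes did, or 0.664% within set 2. There Col6a2 stood at -0.0056 (-0.14 to 0.13, adjusted p = 0.958), Col6a1 at -0.087 (-0.24 to 0.068, adjusted p = 0.387) and Col6a3 at -0.10 (-0.25 to 0.044, adjusted p = 0.273), and within set 2 at -0.17, -0.30 and -0.19 (adjusted p = 0.36, 0.11 and 0.438).

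In the same comparison of WT libraries on lithium and vehicle, where 36.1% of all genes passed, 0 of 37 other collagens were higher and 18 lower (median -0.25, beside -0.018 over all genes), and of 18 fibroblast and meningeal markers 1 was higher and 12 lower (median -0.32). Within set 2, where 0.664% of all genes passed, 0 collagens were higher and 1 lower, and 0 of the markers passed in either direction. The median of the other collagens was -0.19 there, beside the -0.17, -0.30 and -0.19 of Col6a2, Col6a1 and Col6a3, and no difference between the chains and these lists was tested. In HT libraries 0 of the 37 collagens passed with lithium, where 1.52% of all genes did.

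Whether a drug changed the genotype difference was also tested. The test holds the HT minus WT difference on vehicle, so its p-values for the chains are not independent of their choice. The value tested was the drug effect in HT minus that in WT. For lithium this was 0.26 for Col6a2 (95% interval 0.070 to 0.45, adjusted p = 0.101), 0.21 for Col6a1 (-0.0041 to 0.42, adjusted p = 0.243) and 0.0021 for Col6a3 (-0.20 to 0.21, adjusted p = 0.993), so 0 of 3 passed where 2.8% of all genes did. Within set 2 the lithium values were 0.28, 0.37 and 0.051 (adjusted p = 0.421, 0.393 and 0.957), where 0 genes passed. With covariates or a replicate block in the fit the Col6a2 value passed narrowly (adjusted p = 0.0406 to 0.0478, at 0.25 to 0.28). For fluoxetine it was 0.056 for Col6a2 (-0.12 to 0.23, adjusted p = 0.835), 0.016 for Col6a1 (-0.18 to 0.21, adjusted p = 0.965) and -0.056 for Col6a3 (-0.25 to 0.13, adjusted p = 0.849). No gene passed that comparison by limma (0%), while 2187 had an unadjusted p under 0.05 and edgeR called 1. For Col6a1 and Col6a2 every HT library on either drug stood above all WT vehicle libraries, narrowly for Col6a1 (lowest 4123 against 4076). This restates the difference for which the chains were chosen. The share of all genes that do the same was not computed, so nothing is read from it.

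**Figure D5:**
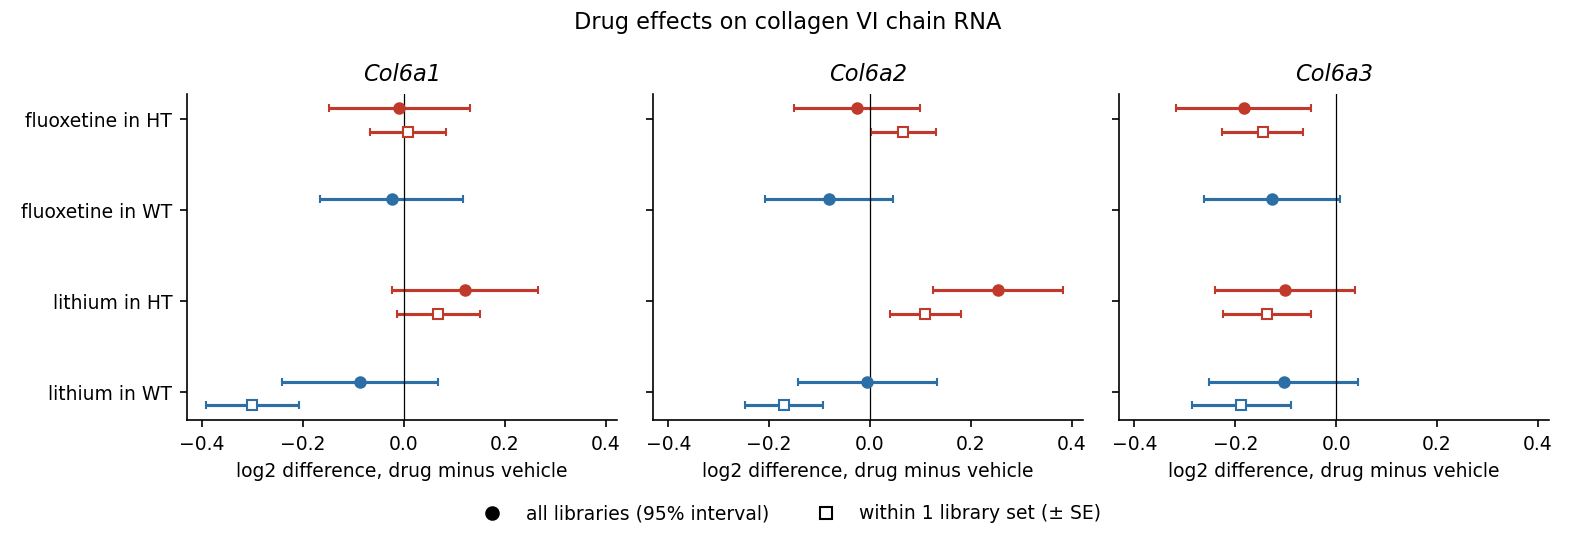
Log2 difference drug minus vehicle of the 3 chains in HT (red) and WT (blue). Circles with 95% intervals use all libraries and open squares with SE the libraries of 1 set, which exist for all but fluoxetine in WT. The circle of Col6a2 under lithium in HT (0.25) is the one that passed the test, and its square stands at 0.11.

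Females and males did not differ past the threshold in any chain, where 0.1% of all genes did. The female minus male difference was 0.12 for Col6a1 (95% interval 0.031 to 0.21, adjusted p = 0.7), 0.063 for Col6a2 (-0.015 to 0.14, adjusted p = 0.836) and 0.081 for Col6a3 (-0.0028 to 0.16, adjusted p = 0.815). The genotype difference in females minus that in males was 0.043 for Col6a2 (-0.11 to 0.20, adjusted p = 0.955), 0.17 for Col6a1 (-0.0088 to 0.34, adjusted p = 0.689) and -0.23 for Col6a3 (-0.39 to -0.060, adjusted p = 0.453). No gene passed that last comparison by limma (0%) or edgeR, while 1363 had an unadjusted p under 0.05. Of the groups of 1 sex, WT males on lithium (n = 3) were the lowest for Col6a3, at 156 ± 5.96 normalized counts, against 198 ± 11.4 in HT males on lithium (n = 5). This was the only arm and sex in which the genotypes of Col6a3 did not overlap. The share of all genes that separate at this group size was not computed, so nothing is read from it. In lithium females Col6a3 stood at 207 ± 16.2 in HT (n = 4) and 191 ± 22.9 in WT (n = 5) and overlapped.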

How the data were processed

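RNA-seq of polyadenylated RNA from 68 libraries in 12 groups (genotype, drug and sex from the labels) was used. Per the submitters' processing notes, the authors worked with Salmon 0.11.2, R 3.6.0, DESeq2 1.19.11 and GRCm38. The deposited values are a normalized signal, read counts divided by 1 size factor per library: divided by the value that 1 read is worth in its library, 100% were whole within 0.01, which gave 22356015 to 37534435 reads per library. Whether counting used strand is not given in the sources used here.

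Genes with a mean of at least 5 (17922 of 18088) were tested on log2(value + 1) with limma 3.58.1 (trend and robust, R 4.3.3, Benjamini-Hochberg, threshold 0.05) over all groups. Fold changes are on that scale, which understates the change of scarce genes. edgeR 4.0.16 on the recovered reads was an alternative. Alternatives covered the pseudocount, low-value filter, scaling, groups in the fit, replicate block, marker covariates, library sets and each library left out. Named were the chains, up to 4 genes of each list with the smallest p, 8 genes most like each chain and 5 neighbours on each side. The limma fit was tested on simulated counts with genotype effects only and no library sets. The drug comparisons and edgeR were not tested in this way. The chains and lists were chosen with earlier results of these data known.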

Additional observations from a re-analysis of the deposited data

Results flagged for a closer look

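Over the groups of 1 sex with at least 4 libraries and the 3 chains, 33 sets of values were checked, and 2 held a library far from the rest of its group. Chance flags about 1 in 20 such sets. For Col6a2, HT lithium female 4 had 2073 normalized counts, the highest of 4, and the nearest of the others had 1451. For Col6a3, WT lithium female 5 had 151 normalized counts, the lowest of 5, and the nearest of the others had 192.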

How the results depend on the processing

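Of 1557 values of Col6a1, Col6a2 and Col6a3 under the alternatives, 12 changed side of the threshold and 1545 counted as unchanged. A genotype value counted as unchanged if it moved by less than the SD between libraries of a group. A tested value did so if it kept its side of the threshold, even with a changed sign where neither fit passed. The fluoxetine difference of Col6a2 in HT, for example, ran from -0.032 to 0.090. Sign changes with a call in either fit numbered 0. All 303 genotype values stayed positive. The lithium difference of Col6a2 in HT lost its call with fibroblast, mural and endothelial scores as covariates (0.24, adjusted p = 0.195), with oligodendrocyte, striatal and olfactory bulb scores (0.19, adjusted p = 0.142) and within set 2 (0.11, adjusted p = 0.62). Leaving out single libraries gave 0.18 to 0.29 (adjusted p = 0.0122 to 0.119), and 5 of 25 such fits lost the call: those without HT lithium female 4, HT lithium male 2, HT vehicle female 1, HT vehicle male 3 or HT vehicle male 5. The lithium effect of Col6a2 in HT minus WT passed with the first scores (0.28, adjusted p = 0.0478) and the second (0.26, adjusted p = 0.0471), and the Col6a1 difference of lithium in WT passed with the second (-0.16, adjusted p = 0.0484). The cause of these changes was not tested.

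Of 32 same-numbered pairs of HT and WT libraries 12 had a correlation of deviations over 0.1 (-0.24 to 0.44, median 0.053). Pairs with different numbers were not compared, so whether the numbers pair the libraries was not tested. With a replicate block the lithium effect of Col6a2 in HT minus WT was 0.25 (adjusted p = 0.0406) and its lithium difference in HT 0.34 (adjusted p = 3.85e-05).

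Counts of genes called varied more. The ranges in brackets leave out the fits without single libraries. HT against WT gave 355 genes under fluoxetine (334 to 702 over the other alternatives), 450 under lithium (420 to 817) and 2680 under vehicle (96 within set 2 to 3617). Without single libraries these 3 counts ran from 276 to 448, from 170 to 594 and from 1730 to 4155. For fluoxetine in HT such fits gave 111 to 432. Fluoxetine gave 218 in HT (4 to 398) and 974 in WT (80 to 4003). Lithium gave 273 in HT (3 to 3746) and 6478 in WT (119 within set 2 to 8849). The drug effect in HT minus WT gave 0 for fluoxetine (0 to 8) and 502 for lithium (0 to 1529), and the genotype effect by sex 0 (0 to 9). Fluoxetine in WT could not be fitted within a set, because no set held both sides.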
